A study of Homo sapiens with 26 samples.

Results

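WT8 and PRC3 are sublines of 786-O, a line grown from a human kidney tumour of the clear cell type, in which the VHL gene is not functional. They were compared over all 54613 probe sets of the Affymetrix U133 Plus 2.0 array, and the arrays were chosen by title, 3 WT8 and 3 PRC3 of the 26 arrays deposited. The names are widely used for 786-O cells that carry wild-type VHL (WT8) or the empty vector (PRC3). The labels do not state this, and they do not say whether each line is 1 clone, which promoter drives the insert or whether the sublines were grown alike. Another group of 3 arrays, Blk, was taken as untreated 786-O cells because its title names neither a vehicle nor a compound, which no label states outright, and it is used here as a level for the parental cells. The titles pTR and pTV, 1 array each, are not explained either, and those arrays entered the normalization alone. All groups share the tumour cell background, and no drug is named for WT8, PRC3 or Blk. The other groups of 3 arrays are titled DMSO, a vehicle, and 40, 41, 76 and 77, which are compounds.

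VHL is the substrate receptor of an ubiquitin ligase that binds hydroxylated HIF-alpha subunits and sends them to the proteasome. Without it, HIF-2a, encoded by EPAS1, accumulates whatever the oxygen supply, pairs with ARNT and turns on genes of blood vessel growth, glucose uptake, growth factor signalling and the cell cycle. 786-O cells make HIF-2a and little or no HIF-1a, and the pair of sublines has long served to separate what VHL does in these cells from what the cells do without it.

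The values are signal intensities per probe set, quantile normalized over the 26 arrays, with a floor of 20, and a change is the difference of the mean log2 signals, WT8 minus PRC3. A gene was read from its brightest probe set, and was called where the adjusted p of limma over the 35013 probe sets kept was below 0.05. Correlations between arrays of log2 signals ran from 0.932 to 0.965 within WT8, from 0.939 to 0.963 within PRC3 and from 0.911 to 0.956 between the sublines. WT8 replicate 3 stood apart in RNA quality. Its control probe sets read more from the 3 prime than from the 5 prime end, by a factor of 2.37 (ACTB) and 1.32 (GAPDH), where no other array of the 26 passed 1.39 and 1.06. No label ties the 3 arrays of a subline to separate cultures, so a p-value here rests on array-to-array spread that may be technical. The number of arrays limits the precision.

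Both sublines carried some but not all of the renal and epithelial markers looked at. PAX8, the transcription factor of the renal lineage, gave 1077, 795 and 939 in WT8, against 1057, 834 and 1007 in PRC3, and the injury marker HAVCR1 gave 480.4, 362 and 278 in WT8, against 463, 355 and 211 in PRC3. The lowest signal of the keratins KRT8 and KRT18 on the 6 arrays was 570.3. The mature proximal tubule genes LRP2, CUBN and AQP1 did not exceed 32.35 on any of the 6 arrays, and EPCAM and CDH1 were at the floor on all 6. LHX1, CDH16 and GGT1 did not exceed 54.47. PAX2 ran from 73.95 to 87.23 in WT8, against 88.54 to 107.6 in PRC3, and was not called. CDH6 ran from 240 to 966.8 in WT8, against 97.55 to 504.1 in PRC3. Its brightest probe set was not called. Of its 6 probe sets 2 were called higher, and the changes ran from 1.01 to 2.16. Of the markers of other cell types, 6 of 10 endothelial, 3 of 10 immune and 3 of 10 fibroblast genes were at the floor on all 6 arrays. Among them were CDH5, VWF, PTPRC, COL3A1, PDGFRB and POSTN. Others were not. COL1A1 ran from 94.66 to 133.8 in WT8, against 96.27 to 103.3 in PRC3. LUM ran from 83.47 to 113 in WT8, against 23.36 to 39.28 in PRC3, and PECAM1 from 60.23 to 77.6 in WT8, against 63.3 to 80.18 in PRC3. No immune marker exceeded 44.03 on any of the 6 arrays. The summed signal of the 10 fibroblast markers ran from 389 to 444 in WT8, against 321 to 348 in PRC3. For the endothelial markers it ran from 309 to 343 in WT8, against 273 to 300.2 in PRC3, and for the immune markers from 231 to 259 in WT8, against 239 to 253 in PRC3.

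In WT8 against PRC3, 1597 of the 35013 probe sets were called (4.56%), 822 higher (2.35%) and 775 lower (2.21%), so that 51.5% of calls were higher, while median scaling gave 442 higher and 742 lower (37.3% higher). By gene, 904 of 15124 were called (5.98%), 494 higher (3.27%) and 410 lower (2.71%), with a median change over all genes of 0.0099. Among the called genes 225 were at least 2-fold higher and 161 at least 2-fold lower, 45 and 33 passed 4-fold, and 9 and 9 passed 8-fold. For 521 called genes the array held other probe sets, 947 in all, of which 858 changed in the same direction, 275 were called in it and 0 were called in the opposite one. The calls draw on the spread of all 24 arrays of the 8 groups with 3 arrays, so they use the DMSO and compound arrays as well. With the 6 arrays fitted alone limma called 19 probe sets, and 4073 had an unadjusted p under 0.05. Of the 115 called genes that the naming rule takes, 69 were called in every fit that left out 1 of the 6 arrays, and CCND1, SLC2A1, CMPK2, MAL2, LPCAT1 and PFKP were called with the 6 arrays alone.

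**Figure D1:**
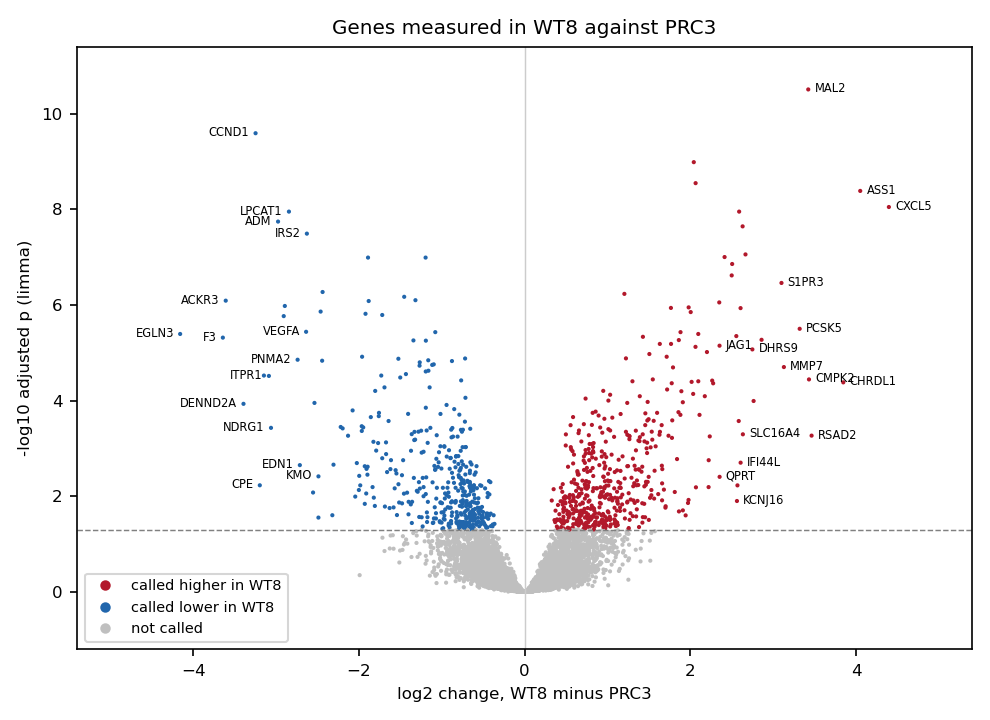
Each point is a gene, with the log2 change of WT8 minus PRC3 on the horizontal axis and −log10 of the adjusted p from limma on the vertical axis; the dashed line marks an adjusted p of 0.05. The 494 called higher lie to the right and the 410 called lower to the left, and the genes with the largest changes in each direction are named.

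The genes that encode the oxygen-sensing machinery itself differed little between the sublines, apart from EGLN3. VHL, read by 1 probe set, gave 67.5, 68.0 and 42.0 in WT8, against 83.8, 42.9 and 39.6 in PRC3 (log2 change 0.15, SE 0.27, adjusted p = 0.886). The arrays overlapped, so this probe set gave no check of an insert, and whether its probes lie within an introduced coding sequence was not tested. EPAS1 gave 575, 502 and 566 in WT8, against 925, 647 and 608 in PRC3, a change of -0.38 that was not called (adjusted p = 0.489), although the arrays did not overlap. Its second probe set gave -0.41. The only probe set of HIF1A was below the filter on low signals.

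Of 18 measured genes of this group, EGLN3 alone was called, against 2.71% of all genes called lower. EGLN3 is a prolyl hydroxylase that marks HIF-alpha for VHL and is itself induced by HIF. It gave 61.7, 20 and 20 in WT8, against 1062, 606 and 218 in PRC3. On 2 WT8 arrays it was at the floor, the groups did not overlap, and the change was -4.16 (SE 0.47, adjusted p = 4.03e-06). EGLN1, the prolyl hydroxylase that sets HIF levels in most cells, gave 304, 477 and 375 in WT8, against 322, 387 and 381 in PRC3, and overlapped. ARNT, CUL2, RBX1, ELOB, ELOC and HIF1AN, the HIF partner, the ligase subunits and the asparaginyl hydroxylase, had changes from -0.14 to 0.29 and overlapping arrays.

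The known target genes of HIF-2a fell as a group. Of 25 measured targets 15 were called lower and 0 higher, against 2.71% and 3.27% of all genes, and the median change was -1.07, against 0.0099 over all genes. The arrays of WT8 lay wholly below those of PRC3 for 15 targets, against 8.77% of all genes. Of the 28 entries of the list, 3 had no measured gene here. The list was chosen with earlier results of these data known, so its counts are a description. Leaving out each array in turn gave 12 to 15 called lower with medians from -1.25 to -0.973, and without WT8 replicate 3 the count was 15. The 6 arrays fitted alone gave 2, CCND1 and SLC2A1. A block on the replicate number gave 17 called lower, where 1318 of all genes were called (8.71%), 4.67% higher and 4.04% lower.

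**Figure D2:**
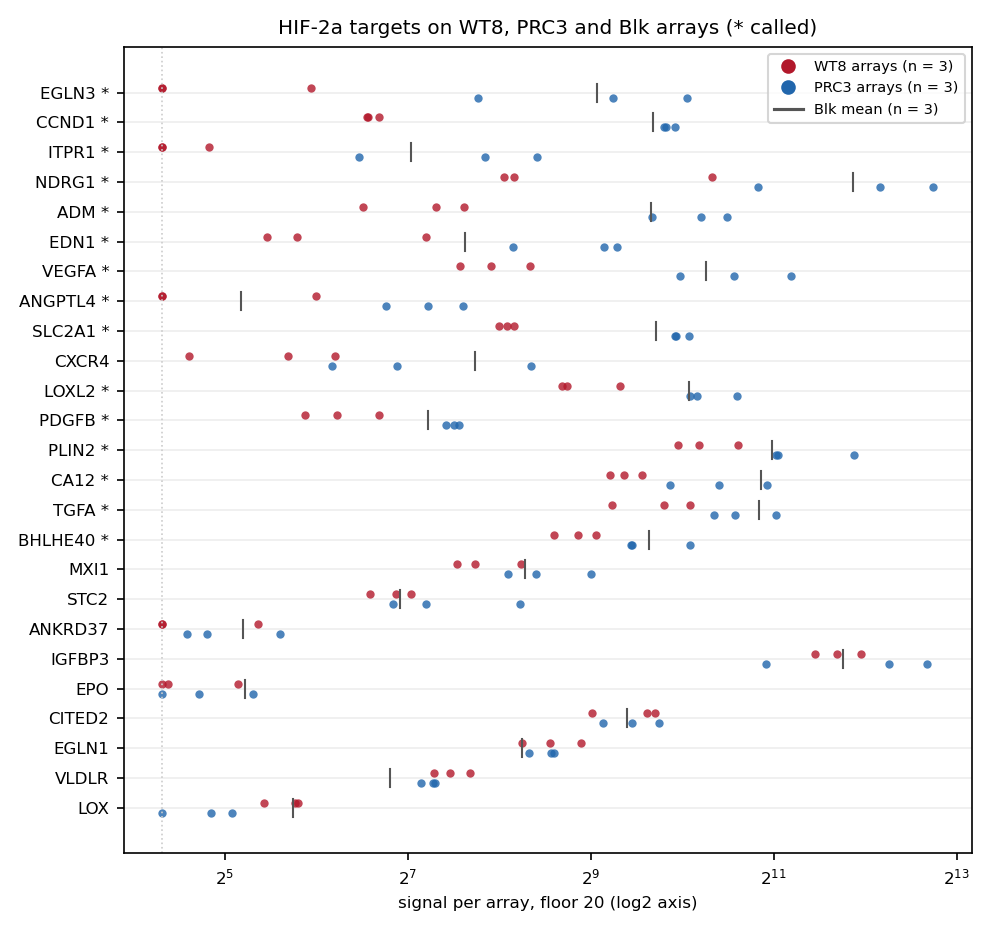
Signal per array on a log2 axis for the 25 measured HIF-2a targets, ordered by change; WT8 arrays are red and PRC3 arrays blue, 3 each, the dark bar is the Blk mean, the dotted line is the floor of 20 and an asterisk marks a call. For CCND1 the WT8 arrays sit between 93.9 and 103 and the PRC3 arrays between 895 and 971, while targets in the lower rows, such as CITED2 and EGLN1, overlap.

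Among the targets that act on blood vessels, VEGFA, the main growth factor of endothelial cells, gave 324, 189.7 and 240.5 in WT8, against 2326, 1522 and 1008 in PRC3, 6.23-fold lower (adjusted p = 3.63e-06). All 4 of its probe sets were called lower, with changes from -3.29 to -2.37. ADM, which encodes the vasodilator peptide adrenomedullin, gave 196, 91.3 and 158 in WT8, against 1438, 1181 and 812 in PRC3. EDN1, the precursor of the vasoconstrictor endothelin-1, gave 55.2, 44.0 and 147 in WT8, against 623, 285 and 566 in PRC3. For both genes the lowest PRC3 array was above the highest WT8 array, with falls of 7.87-fold (adjusted p = 1.79e-08) and 6.56-fold (adjusted p = 0.00224). PDGFB, which recruits pericytes to new vessels, gave 103, 75.0 and 58.9 in WT8, against 182, 172 and 189 in PRC3 (2.35-fold lower, adjusted p = 0.00415). ANGPTL4, a secreted inhibitor of lipoprotein lipase, gave 20, 20 and 63.8 in WT8, against 109, 195 and 149.9 in PRC3. It was called (log2 change -2.32, adjusted p = 0.025), and the call ended without either of WT8 replicates 1 and 2 or of PRC3 replicates 2 and 3.

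Targets that drive growth fell by very different amounts. CCND1, the cyclin that opens the G1 phase, gave 94.8, 103 and 93.9 in WT8, against 895, 909 and 971 in PRC3, and the 3 arrays of each subline lay closer together than for most other targets. The change was -3.25 with the SE at 0.19 (adjusted p = 2.54e-10), and its second probe set gave -1.90. TGFA, a ligand of the EGF receptor, gave 604, 891 and 1088 in WT8, against 1533, 2077 and 1299 in PRC3, 1.92-fold lower (adjusted p = 0.00958). All 3 TGFA probe sets were called lower, but the call of the brightest ended without WT8 replicate 1 or PRC3 replicate 2.

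Targets of metabolism and of the cell surface fell too. SLC2A1, the glucose transporter GLUT1, gave 287, 256 and 272 in WT8, against 1077, 976 and 969 in PRC3 (3.71-fold lower, adjusted p = 1.02e-07). CA12, a carbonic anhydrase of the cell surface that acidifies the outside of the cell, gave 660.4, 754 and 594 in WT8, against 1941, 1356 and 931 in PRC3 (2.02-fold lower, adjusted p = 0.000902). Of its 7 probe sets 5 were called lower, and the changes ran from -1.27 to 0.68. PLIN2, which coats the lipid droplets that give clear cell tumours their name, gave 1559, 989.6 and 1166 in WT8, against 3758, 2082 and 2108 in PRC3 (2.09-fold lower, adjusted p = 0.00165). Neither SLC2A1, CA12 nor PLIN2 had overlapping arrays.

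NDRG1, a hypoxia-induced gene linked to differentiation and stress, spread widely within each subline. It gave 1286, 286 and 266 in WT8, against 6866, 4587 and 1812 in PRC3, and the groups did not overlap (8.35-fold lower, adjusted p = 0.000372). Replicate 1 was the highest array of each subline. ITPR1, a calcium channel of the endoplasmic reticulum, gave 28.4, 20 and 20 in WT8, against 342, 229.8 and 88.8 in PRC3 (8.50-fold lower, adjusted p = 3.05e-05), and 2 of 3 WT8 arrays were at the floor. LOXL2, which cross-links collagen, gave 641, 428 and 412 in WT8, against 1548, 1145 and 1087 in PRC3 (2.57-fold lower, adjusted p = 0.000503). BHLHE40, a repressor induced by HIF, was the smallest of the called falls, with 466, 387 and 533 in WT8, against 1089, 696 and 702 in PRC3 (1.77-fold lower, adjusted p = 0.0344). That call ended without WT8 replicate 1 or 2 or PRC3 replicate 1, while its dimmer probe set gave -1.46.

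Of the 25 targets 10 were not called, IGFBP3 and LOX among them. CXCR4, the receptor of the chemokine CXCL12, gave 51.9, 24.5 and 73.7 in WT8, against 325, 118 and 72.5 in PRC3 (log2 change -1.63, adjusted p = 0.124), and MXI1, an antagonist of MYC, gave 302, 213 and 186 in WT8, against 513, 338 and 273 in PRC3 (log2 change -0.66, adjusted p = 0.165). Both overlapped between sublines but were lower in WT8 within each replicate number except for CXCR4 in replicate 3, and with the number as a block the adjusted p was 0.00338 for CXCR4 and 0.00666 for MXI1. IGFBP3, which binds insulin-like growth factors, gave 3952, 3299 and 2801 in WT8, against 6524, 4909 and 1938 in PRC3, so that 1 PRC3 array lay below and 2 lay above all WT8 arrays. STC2, ANKRD37 and EPO had changes from -0.59 to -0.17, and CITED2, EGLN1 and VLDLR from 0.0011 to 0.24, all with overlapping arrays. LOX, a collagen cross-linking enzyme, lay the other way without overlap, with 54.7, 43.3 and 55.7 in WT8, against 33.9, 29.0 and 20 in PRC3 (log2 change 0.92, adjusted p = 0.172). Its second probe set was called higher (log2 change 1.04, adjusted p = 0.0493), with all 3 PRC3 arrays at the floor.

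HIF binds a short hypoxia response element whose core reads ACGTG or GCGTG. Of the 15 targets called lower, 10 had a promoter window in the RefSeq table of GRCh38.p14, which runs from 250 bases before to 50 bases after the start site. ACGTG was found on either strand in the windows of 4 of them, ANGPTL4, BHLHE40, EDN1 and PLIN2, and the match upstream of the start site and nearest to it is shown with 8 bases on each side, 5′ to 3′ on the strand of the gene, with the core in capitals. In ANGPTL4, BHLHE40 and EDN1 the core lies on the opposite strand and so reads CACGT.
ANGPTL4, chr19:8363913-8363933, plus strand, 234 to 230 bases before the start site: agaagagtCACGTctcccacg
BHLHE40, chr3:4979280-4979300, plus strand, 149 to 145 bases before the start site: gggtagaaCACGTagctccaa
EDN1, chr6:12287918-12287938, plus strand, 93 to 89 bases before the start site: tggctggcCACGTtttgtgtt
PLIN2, chr9:19127548-19127568, minus strand, 68 to 64 bases before the start site: cgcgggtcACGTGctgcggag

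Such a short core is common in promoters. ACGTG was present in 26.8% of the 328 windows of genes called lower, in 32.2% of the 400 windows of genes called higher and in 21.6% of all 27305 windows of the table. With GCGTG added, which shares letters with ACGTG, the core was in 8 of the 10 windows of the targets. The shares were 62.5% of genes called lower, 60.5% of genes called higher and 48.4% of all windows. Windows were found for 80% of the 410 genes called lower and 81% of the 494 called higher. A match is a run of letters in a window and says nothing of binding.

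Of 19 measured genes that prefer HIF-1a in other cells, 2 were called lower and 1 higher, against 2.71% and 3.27% of all genes, with a median of -0.31. In all 16 of the 19 lay below 0, and 6 had WT8 arrays wholly below PRC3, against 8.77% of all genes. PFKL, the liver subunit of phosphofructokinase, gave 179, 104 and 101 in WT8, against 200.01, 192 and 192 in PRC3 (1.58-fold lower, adjusted p = 0.0413). P4HA2, a collagen prolyl hydroxylase, was 1.43-fold lower (adjusted p = 0.0256). BNIP3, a mitophagy receptor and a standard HIF-1a target, went the other way, with 702, 613 and 791 in WT8, against 455, 506 and 559 in PRC3 (1.38-fold higher, adjusted p = 0.0213). The list had 0 called lower without WT8 replicate 2 or PRC3 replicate 1, and BNIP3 lost its call without WT8 replicate 3 or PRC3 replicates 1 or 2. With the block 5 genes of the list were called lower, where 4.04% of all genes were called lower.

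In glucose transport and glycolysis more genes lay below 0 than above. This list overlaps others above, with PFKL also in the HIF-1a list and SLC2A1 also a HIF-2a target. The counts of these lists are not separate results. Of 23 measured genes 4 were called lower and 0 higher, against 2.71% and 3.27% of all genes, 17 lay below 0, and 9 had WT8 arrays wholly below PRC3, against 8.77% of all genes. With the block 6 were called lower, where 4.04% of all genes were called lower. The 4 were SLC2A1 and PFKL above and 2 isozymes that differ between tissues. ENO2, the enolase of neurons, gave 36.5, 20.8 and 20 in WT8, against 283, 168 and 131 in PRC3 (7.44-fold lower, adjusted p = 1.05e-06), and PFKP, the platelet subunit of phosphofructokinase, gave 1202, 1286 and 1238 in WT8, against 2687, 3003 and 2850.4 in PRC3 (2.29-fold lower, adjusted p = 1.02e-07). The 3 arrays of each subline lay close together for PFKP and far from the other subline. ENO1, GAPDH, PGK1, TPI1 and LDHA, enzymes of the common glycolytic trunk, had changes from -0.19 to 0.16 and none was called. The median of the list was -0.31, but it was -0.0506 without WT8 replicate 3 and -0.148 without PRC3 replicate 1. Of 25 genes of the respiratory chain and the citric acid cycle, 2 were called higher and 0 lower, against 3.27% and 2.71% of all genes: UQCRC2 of complex III gave 1034, 1059 and 1223 in WT8, against 697, 685 and 726 in PRC3 (1.57-fold higher, adjusted p = 0.00048), and NDUFB8 of complex I was 1.32-fold higher (adjusted p = 0.0153), a call that ended without WT8 replicate 2 or PRC3 replicate 1.

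The list of angiogenic and vasoactive genes overlaps the HIF-2a targets. Of its 21 genes 7 were called lower and 0 higher, against 2.71% and 3.27% of all genes, with a median of -0.26, and leaving out each array in turn gave 6 or 7 lower, with medians from -0.309 to -0.099. Of the 7, VEGFA, ADM, EDN1, ANGPTL4 and PDGFB are the targets described above, and over the whole list 12 genes lay below 0 and 9 above. The calls outside the target list were EDN2 and PDGFC, a growth factor of the PDGF family (1.58-fold lower, adjusted p = 0.00539). EDN2, the endothelin-2 precursor, was at the floor on all 3 WT8 arrays, against 260.2, 116 and 184 in PRC3, at least 8.86-fold lower (adjusted p = 2.99e-05). Of the vascular receptors in the list, KDR, TEK and FLT1 had log2 changes of 0.36, 0.40 and 0.43 and were not called. F3, tissue factor, the starter of the extrinsic coagulation cascade, gave 20, 20 and 67.7 in WT8, against 282, 321 and 584 in PRC3 (12.5-fold lower with 2 WT8 arrays taken at the floor, so the fold is a lower estimate, adjusted p = 4.81e-06). Axon guidance genes went both ways, with 2 of 24 called lower and 2 higher (2.71% and 3.27% of all genes). Among the lower ones SEMA6A gave 121, 83.8 and 65.3 in WT8, against 738, 491 and 221 in PRC3 (4.95-fold lower, adjusted p = 0.00219), without overlap, and SEMA4B was 2.76-fold lower (adjusted p = 0.00177). SEMA3A and SEMA3F, secreted ligands of neuropilins, were called higher (2.05-fold and 1.77-fold, adjusted p = 0.0431 and 0.041), and both calls ended without WT8 replicates 1 or 2, among other arrays.

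Growth factor signalling and the cell cycle were lower in part. Of 14 measured growth factor receptors and ligands 4 were called lower and 0 higher, against 2.71% and 3.27% of all genes. With the block, a floor of 50, no filter or no trend in eBayes, among other settings, 1 was called higher. Beside TGFA the genes called lower were its receptor EGFR (1.73-fold, adjusted p = 0.0463), the receptor kinase AXL (1.56-fold, adjusted p = 0.0262) and the AXL ligand GAS6. Of 8 EGFR probe sets 1 was called, and the changes ran from -1.13 to 0.41. When each array was left out in turn, the EGFR call held only without PRC3 replicate 3. GAS6 gave 230.2, 228 and 257 in WT8, against 344, 359 and 395 in PRC3 (1.54-fold lower, adjusted p = 0.00653). The list's count was 1 without WT8 replicate 1 and 2 without WT8 replicate 2 or PRC3 replicate 2, and only GAS6 was called in every such fit. IRS2, the adaptor of the insulin and IGF1 receptors, had a larger fall than any gene of that list, with 381, 231 and 394 in WT8, against 2222, 1839 and 2004 in PRC3 (6.19-fold lower, adjusted p = 3.2e-08).

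Among 18 measured G1 regulators CCND1 alone was called, 5.56% of the list, near the 5.98% of all genes. CDK4, CDK6, CCND2, CCND3, RB1 and E2F1 were not called, with changes from -0.63 to 0.38. Downstream, 5 of 25 DNA replication genes and 8 of 24 mitosis genes were called lower and 0 higher, against 2.71% of all genes lower. No called gene of these lists fell by more than 2.05-fold. MCM7 of the replicative helicase gave 499, 573 and 361 in WT8, against 848, 1168 and 901 in PRC3 (adjusted p = 0.00196), the largest fall of the replication list. UBE2C, the conjugating enzyme of the anaphase-promoting complex, gave 1635, 1388 and 1076 in WT8, against 2441, 2018 and 2148 in PRC3 (1.63-fold lower, adjusted p = 0.00243). BUB1B of the spindle checkpoint (1.69-fold) and cyclin A2, CCNA2 (1.61-fold), were lower by similar factors, with adjusted p of 0.00455 and 0.00476.

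In total 23 of 25 replication genes and 22 of 24 mitosis genes lay below 0, with medians of -0.44 and -0.32. The counts were unsteady. For replication the count was 2 without WT8 replicate 1, 3 without WT8 replicate 2 and 1 without PRC3 replicate 2. With the block it was 10, where 4.04% of all genes were called lower. For mitosis it was 5 without WT8 replicate 2, 4 without WT8 replicate 3 and 5 without either of PRC3 replicates 2 and 3. In bulk RNA fewer cycling cells and less RNA per cycling cell cannot be told apart.

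Interferon-stimulated genes rose together. These genes are induced by type I interferons through the factor ISGF3 and mostly act against viruses. Of 27 measured 16 were called higher and 0 lower, against 3.27% and 2.71% of all genes, with a median of 1.25. The WT8 arrays lay wholly above the PRC3 arrays for 18 genes, against 10% of all genes. Of the 29 entries of the list, 2 were not analysed here. This list too was chosen with earlier results of these data known, so its counts are a description. The count was 8 without WT8 replicate 2, 10 without PRC3 replicate 3 and 17 without WT8 replicate 3. The median ran from 1.03 to 1.48 over the fits that left out 1 array. The block gave 20 called higher, where 4.67% of all genes were called higher. Median scaling in place of quantile normalization gave 9. The number of calls over the whole array moved with the setting too. Over all probe sets 822 were called higher, and 522 without WT8 replicate 2. They were 673 without PRC3 replicate 3, 772 without WT8 replicate 3 and 442 with median scaling.

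**Figure D3:**
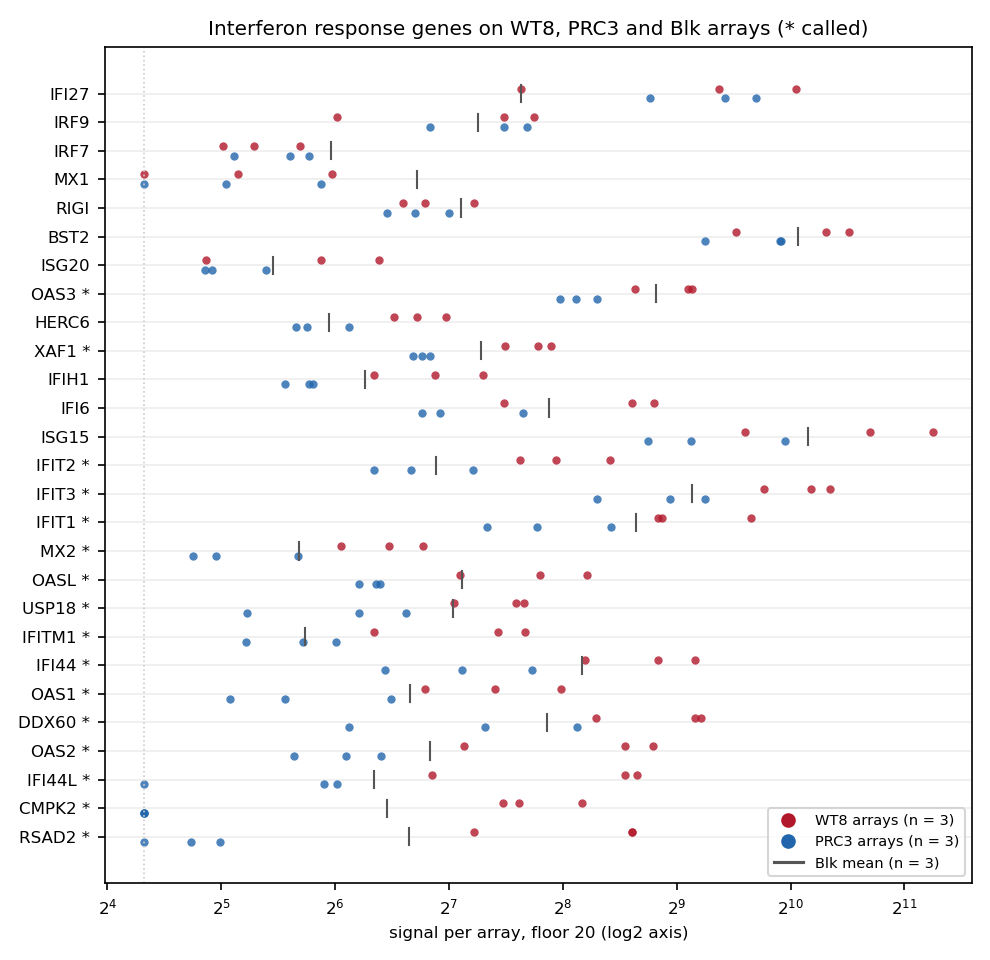
Signal per array on a log2 axis for the 27 measured interferon response genes, ordered by change; WT8 arrays are red and PRC3 arrays blue, 3 each, the dark bar is the Blk mean, the dotted line is the floor of 20 and an asterisk marks a call. In the bottom row RSAD2 sits between 149 and 390.1 in WT8 and between 20 and 31.7 in PRC3, and for most called genes the Blk mean lies between the means of the sublines.

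RSAD2, which encodes the antiviral enzyme viperin, gave 390.1, 389 and 149 in WT8, against 26.6, 31.7 and 20 in PRC3 (log2 change 3.46, adjusted p = 0.00054). CMPK2, a nucleotide kinase whose gene neighbours RSAD2, gave 178, 287 and 196 in WT8 and was at the floor on all 3 PRC3 arrays, at least 10.8-fold higher (adjusted p = 3.6e-05). IFI44L, an interferon-induced gene, gave 402, 374 and 116 in WT8, against 59.7, 64.6 and 20 in PRC3 (6.09-fold higher, adjusted p = 0.00199). OAS2, a sensor enzyme of double-stranded RNA, gave 374, 444 and 139.9 in WT8, against 68.4, 84.7 and 49.7 in PRC3 (4.32-fold higher, adjusted p = 0.000199). In RSAD2, IFI44L and OAS2, WT8 replicate 3 was the lowest WT8 array and still lay above all PRC3 arrays.

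The rise did not cover the whole list. IFI27, MX1, IRF7, IRF9 and RIGI had changes from -0.28 to 0.15, and their arrays overlapped. ISG15 gave 1658, 2430.3 and 778 in WT8, against 431, 992 and 557 in PRC3 and was not called (log2 change 1.24, adjusted p = 0.0796). Of 19 antigen presentation genes 3 were called higher and 0 lower, against 3.27% and 2.71% of all genes, 16 lay above 0, and 6 had WT8 arrays wholly above PRC3, against 10% of all genes. The 3 were PSMB9 and PSMB8 of the immunoproteasome and the peptide trimmer ERAP2, and the last 2 lost their calls without WT8 replicate 2 or PRC3 replicate 3 and others. PSMB9 gave 615, 602 and 295 in WT8, against 157, 180.0 and 155 in PRC3 (2.92-fold higher, adjusted p = 3.6e-05), while HLA-B, HLA-C, B2M and TAP1 had changes from 0.084 to 0.36 and were not called. EIF2AK2, the interferon-induced kinase PKR, gave 566, 569.6 and 510.1 in WT8, against 314, 366 and 284 in PRC3 (1.71-fold higher, adjusted p = 0.00125).

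Interferon-stimulated genes carry an element that ISGF3 binds, with the pattern GAAA, then 2 bases of any kind, then GAAA. Of the 16 called genes 11 had a RefSeq promoter window, and 7 of those held the pattern on either strand, DDX60, IFI44, IFI44L, IFIT1, IFIT3, IFITM1 and OAS3. The pattern was present in 6.25% of windows of all genes called higher, in 1.52% of those called lower and in 3.65% of all windows. ACGTG was in 0 of the 11 windows, and ACGTG or GCGTG in 2 of them. The matches of the 4 genes with the largest rise among the 7 are shown on the strand of the gene, 5′ to 3′, with the pattern in capitals; in IFI44 it lies on the opposite strand and so reads as its reverse complement. DDX60, IFI44 and IFITM1 were chosen for this after their values were seen.
IFI44L, chr1:78620367-78620392, plus strand, 73 to 64 bases before the start site: ctagtgagGAAAAAGAAAgttagtgg
DDX60, chr4:168318788-168318813, minus strand, 53 to 44 bases before the start site: ggagaaagGAAACCGAAActcccgcc
IFI44, chr1:78649763-78649788, plus strand, 18 to 9 bases before the start site: acactgagTTTCAGTTTCctttctct
IFITM1, chr11:313992-314017, plus strand, 40 to 31 bases before the start site: aacagcagGAAATAGAAActtaagag

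Several of the largest rises encode secreted or surface proteins of inflammation and epithelia. CXCL5, a chemokine that attracts neutrophils, gave 1015, 895 and 1893 in WT8, against 28.9, 64.8 and 98.2 in PRC3 (21.1-fold higher, adjusted p = 8.88e-09). Of its 3 probe sets 2 were called higher and the other gave 0.053. IL18, a cytokine of the inflammasome, gave 154, 212 and 142 in WT8, against 20, 34.6 and 21.4 in PRC3 (6.79-fold higher, adjusted p = 0.000102). VCAM1, an adhesion receptor for leukocytes that renal tubule cells also make, gave 841, 1519 and 1459.6 in WT8, against 195, 259.8 and 278 in PRC3 (5.10-fold higher, adjusted p = 8.82e-07). The NF-kB and cytokine list as a whole went both ways, with 2 of 20 called higher and 3 lower (3.27% and 2.71% of all genes), among them ICAM1 at 1.96-fold lower (adjusted p = 0.0255), a call lost without WT8 replicates 2 or 3 or PRC3 replicates 1 or 3.

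MAL2, a protein of apical transport in epithelia, had the smallest adjusted p of all rises and gave 1697, 1671 and 2179 in WT8, against 139, 222 and 162 in PRC3 (10.7-fold higher, SE 0.18 on the log2 scale, adjusted p = 3.08e-11). MMP7, a matrix protease of injured tubules and many carcinomas, gave 1759, 1328 and 414 in WT8, against 209, 105 and 65.6 in PRC3 (8.75-fold higher, adjusted p = 1.99e-05). PCSK5, a proprotein convertase, gave 155, 247 and 261 in WT8, against 20, 25.0 and 20 in PRC3 (9.99-fold higher, adjusted p = 3.14e-06). All 3 PCSK5 probe sets were called higher. JAG1, a Notch ligand, gave 574, 923 and 521 in WT8, against 100.0, 106 and 196 in PRC3 (5.11-fold higher, adjusted p = 7.09e-06), and all 4 of its probe sets were called higher. It was the only gene called of 22 in the WNT and Notch list, where the block gave 2. S1PR3, a receptor of sphingosine 1-phosphate, gave 202, 233 and 284 in WT8, against 20.5, 29.7 and 34.8 in PRC3 (8.58-fold higher, adjusted p = 3.45e-07).

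Metabolic enzymes, transporters and a BMP antagonist were also among the largest rises. ASS1, argininosuccinate synthase, which lets a cell make its own arginine, gave 583, 349 and 224 in WT8, against 20, 20 and 25.0 in PRC3 (16.6-fold higher, adjusted p = 4.09e-09), and 2 of the PRC3 arrays were at the floor. In the arginine and polyamine list 3 of 16 genes were called higher and 1 lower, against 3.27% and 2.71% of all genes. The block gave 3 higher and 2 lower, against 4.67% and 4.04% of all genes. Beside ASS1, OAT (1.40-fold) and SAT1 (1.54-fold) were called higher and the arginine importer SLC7A1 lower (1.55-fold). The adjusted p were 0.0135, 0.0363 and 0.0236. These last 3 calls ended without WT8 replicate 2 and without at least 2 of the other arrays in turn. CHRDL1, an antagonist of BMP ligands, gave 159, 406 and 368 in WT8 and was at the floor on all 3 PRC3 arrays, at least 14.4-fold higher (adjusted p = 4.15e-05). QPRT, an enzyme on the path from quinolinate to NAD, gave 687, 319.6 and 148 in WT8, against 74.8, 54.5 and 59.7 in PRC3 (5.11-fold higher, adjusted p = 0.00394). KMO, an earlier enzyme on the path from tryptophan to quinolinate, moved the other way, with 69.7, 52.3 and 22.7 in WT8, against 553, 305 and 86.7 in PRC3 (5.61-fold lower, adjusted p = 0.00385). The short-chain dehydrogenase DHRS9 (6.72-fold), the monocarboxylate transporter family member SLC16A4 (6.21-fold) and the potassium channel KCNJ16 (5.91-fold) were also among the 15 largest rises whose brighter subline reached the 70th percentile of signal, with adjusted p of 8.48e-06, 0.000507 and 0.0126. The KCNJ16 call ended without WT8 replicate 2 or PRC3 replicate 3.

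The largest falls outside the HIF lists were of mixed function. ACKR3, a scavenging receptor of CXCL12, was at the floor on all 3 WT8 arrays, against 448, 214 and 151 in PRC3, at least 12.2-fold lower (adjusted p = 8.1e-07). DENND2A, a Rab exchange factor, was likewise at the floor in WT8, against 535, 130.0 and 134 in PRC3, at least 10.5-fold lower (adjusted p = 0.000117). CPE, a carboxypeptidase that matures peptide hormones, gave 29.6, 20 and 20 in WT8, against 439, 207 and 101 in PRC3 (9.17-fold lower with 2 WT8 arrays taken at the floor, a lower estimate, adjusted p = 0.00592). LPCAT1, which remodels phosphatidylcholine, gave 181, 202 and 159 in WT8, against 1419, 1543 and 984 in PRC3 (7.19-fold lower, adjusted p = 1.11e-08). PNMA2, a neuronal antigen of the PNMA family, gave 42.2, 29.1 and 20 in WT8, against 201, 214 and 170.3 in PRC3 (6.68-fold lower, adjusted p = 1.4e-05). The groups did not overlap in any of these 5 genes.

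Genes of lipid storage and of pH control were called as well. HILPDA, which binds the lipase ATGL at lipid droplets, gave 103, 92.0 and 90.1 in WT8, against 503, 223 and 190.2 in PRC3 (2.92-fold lower, adjusted p = 0.00335). With LPCAT1 and PLIN2 it made 3 called lower and 0 higher among 22 lipid genes, against 2.71% and 3.27% of all genes, with a median of 0.074; the block gave 1 higher. Of 9 carbonic anhydrase and pH genes 3 were called higher and CA12 lower, against 3.27% and 2.71% of all genes, and 7 of the 9 lay above 0. The block gave 4 higher. The sodium bicarbonate cotransporter SLC4A4 gave 635, 508 and 444 in WT8, against 364, 289 and 175 in PRC3 (1.98-fold higher, adjusted p = 0.00939). CA13 (1.96-fold higher, adjusted p = 0.0108) and NHERF1, a scaffold of transporters at the brush border (1.70-fold higher, adjusted p = 0.0241), were the others, and with median scaling the list had 1 called higher. The call of SLC4A4 ended without PRC3 replicate 3, that of CA13 without WT8 replicate 3 or PRC3 replicate 2, and that of NHERF1 without WT8 replicates 1 or 2 or PRC3 replicate 1.

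VHL binds fibronectin and is known to be needed for its assembly outside the cell. Of 27 genes of fibronectin, collagens and laminins 4 were called higher and 0 lower, against 3.27% and 2.71% of all genes, and the block gave 4 higher and 1 lower. FN1 gave 6783, 6828 and 7251 in WT8, against 4754, 3902 and 3718 in PRC3 (1.70-fold higher, adjusted p = 0.0177). Its other probe sets gave larger log2 changes, up to 1.80, and 6 of 7 were called, while the call of the brightest ended without WT8 replicates 2 or 3 or PRC3 replicates 2 or 3. LAMB1, a laminin chain, gave 431, 525 and 571 in WT8, against 305, 327 and 277 in PRC3 (1.67-fold higher, adjusted p = 0.00958), and the proteoglycan LUM was 2.91-fold higher (adjusted p = 0.000657). The count of the list was 1 without WT8 replicate 3 and 2 without WT8 replicate 2 or PRC3 replicate 3, and 1 with median scaling. LUM is also one of the fibroblast markers, whose summed signal was higher in WT8. That sum includes LUM itself, with means of 95.4 in WT8 and 33.4 in PRC3. By their brightest probe sets COL1A1, COL1A2, DCN and THY1 were not called and had overlapping arrays. The part of other cells in the LUM signal was not tested, and COL3A1, PDGFRB and POSTN were at the floor on all 6 arrays.

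Adhesion and cell-shape genes showed no common direction. Of 17 integrins 3 were called lower and 0 higher, against 2.71% and 3.27% of all genes, and the block gave 4 lower and 1 higher. The lower ones were led by ITGB8, an activator of latent TGF-beta, with 305, 228 and 293 in WT8, against 898, 1009.5 and 1446 in PRC3 (4.00-fold lower, adjusted p = 0.00743). The TGF-beta genes INHBB (3.38-fold, adjusted p = 0.00018), TGFB1 (2.56-fold, adjusted p = 0.0131) and the TGF-beta-induced matrix gene TGFBI (1.84-fold, adjusted p = 1.49e-05) were lower, in a list of 24 with 3 lower and 1 higher (2.71% and 3.27% of all genes). TGFB1 lost its call without WT8 replicate 3 or PRC3 replicate 1. Of 14 mesenchymal genes limma called 0, with VIM at -0.021, CDH2 at -0.23 and ZEB1 at 0.27. Of 19 junction and keratin genes MAL2 was called higher and CLDN4 lower, against 3.27% and 2.71% of all genes. Of the 6 fits that left out an array, only the 1 without WT8 replicate 1 called CLDN4. VHL also maintains the primary cilium, and of 25 cilium genes RPGRIP1L and IFT20 were called higher (1.93-fold and 1.60-fold, adjusted p = 0.0236 and 0.0324), against 3.27% of all genes, calls that both ended without WT8 replicates 2 or 3 or PRC3 replicate 3.

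**Figure D4:**
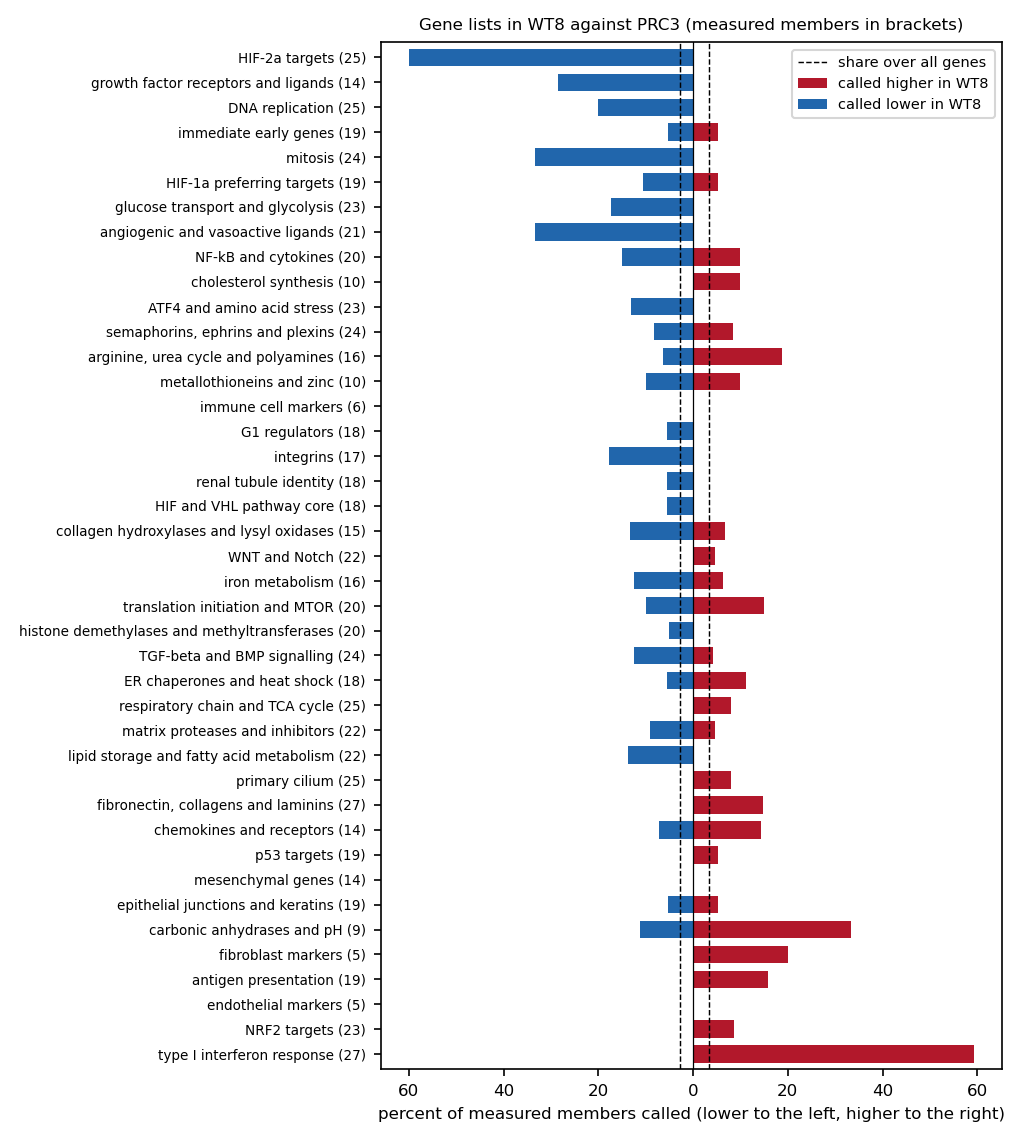
For each of the 41 gene lists the bars give the percent of measured members called lower (left, blue) and higher (right, red) in WT8 against PRC3, with the number of measured members in brackets and lists ordered by median change; dashed lines mark the shares over all genes, 2.71% lower and 3.27% higher. HIF-2a targets have the longest bar to the left and the interferon response the longest to the right. The lists were chosen with earlier results of these data known.

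The other lists held called genes as well. In the list of amino acid stress genes of the ATF4 pathway, SLC7A5, the large neutral amino acid transporter, gave 651, 484 and 468 in WT8, against 1122, 1182 and 1243 in PRC3 (2.24-fold lower, adjusted p = 2.37e-05), and 3 of 23 were called lower, against 2.71% of all genes (4 with the block). Of 23 NRF2 targets AKR1C3 (4.19-fold, adjusted p = 0.00653) and GCLM (1.41-fold, adjusted p = 0.0105) were called higher, GCLM not without WT8 replicate 3 or PRC3 replicate 1, and 19 of the 23 lay above 0; the block gave 3 higher, and 3.27% of all genes were called higher in the fit without it. Aldo-keto reductase genes of the AKR1C family are near-identical, so probes may read more than 1 of them. DEPTOR, an inhibitor of the MTOR kinase, gave 75.0, 88.2 and 49.2 in WT8 and was at the floor on all 3 PRC3 arrays, at least 3.44-fold higher (adjusted p = 0.000259). EIF4EBP1, the repressor of eIF4E, was 1.69-fold lower (adjusted p = 0.00511). Their list, translation initiation and MTOR, had 3 of 20 called higher and 2 lower, against 3.27% and 2.71% of all genes. With the block it had 3 higher and 4 lower. KLF4, a transcription factor of differentiated epithelia, gave 219, 181 and 246 in WT8, against 64.2, 78.8 and 118 in PRC3 (2.54-fold higher, adjusted p = 0.0011). The small heat shock protein CRYAB was 3.71-fold higher (adjusted p = 6.37e-05) and the copper ferroxidase ceruloplasmin, CP, 3.96-fold lower (adjusted p = 0.00594), with overlapping arrays for CP and a call that ended without PRC3 replicate 1. The chaperone list of CRYAB had 2 of 18 called higher and 1 lower (4 and 1 with the block). The iron list of CP had 1 of 16 called higher and 2 lower (1 and 3 with the block). Over all genes 3.27% were called higher and 2.71% lower (4.67% and 4.04% with the block). Lists with 1 gene called, such as p53 targets (1 of 19), histone demethylases and methyltransferases (1 of 20) and the WNT and Notch genes above, had shares near the 5.98% of all genes.

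Set beside the Blk arrays, the sublines did not lie on the 2 sides of the parental cells in the same way for every gene. WT8 differed from Blk in 836 genes (5.53%), 393 higher (2.6%) and 443 lower (2.93%), and PRC3 differed from Blk in 210 (1.39%), 72 higher (0.476%) and 138 lower (0.912%). The 3 comparisons share arrays. Of the 25 HIF-2a targets 14 were called lower and 0 higher in WT8 against Blk, and 0 were called in PRC3 against Blk. CCND1 measured 819.6 ± 111 in Blk (SD, n = 3), NDRG1 3726 ± 1217 and VEGFA 1224 ± 222, and against Blk the changes in WT8 were -3.07, -2.97 and -2.30 and those in PRC3 0.18, 0.10 and 0.34. ANGPTL4 and EDN1 were exceptions. Blk measured 36.2 ± 27.3 for ANGPTL4 and 197 ± 59.7 for EDN1, and neither gene was called in WT8 against Blk (log2 changes -0.051 and -1.43) or in PRC3 against Blk (log2 changes 2.27 and 1.28).

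The interferon genes lay on both sides of Blk. Their median change was 0.60 in WT8 against Blk and -0.63 in PRC3 against Blk, with 3 of 27 called higher and 1 lower in WT8 and 1 called lower in PRC3. For RSAD2 Blk measured 100.2 ± 44.9, and the changes of 1.63 in WT8 and -1.84 in PRC3 were not called (adjusted p = 0.12 and 0.153). Among the largest rises, some went with a low level in PRC3. CXCL5 measured 666 ± 104 in Blk and was called lower in PRC3 (-3.54, adjusted p = 5.61e-07) but not called in WT8 (0.86, adjusted p = 0.149). PCSK5 (119 ± 34.4 in Blk) was also called lower in PRC3 only, at -2.42 (adjusted p = 0.000605), with 0.90 in WT8 (adjusted p = 0.189). ASS1 and MAL2 were called in both directions, higher in WT8 (adjusted p = 0.000122 and 3.95e-08) and lower in PRC3 (adjusted p = 0.000298 and 0.000369).

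Other changes lay in WT8. MMP7 measured 93.8 ± 29.3 in Blk, with a change of 3.44 in WT8 (adjusted p = 1.16e-05) and 0.31 in PRC3 (adjusted p = 0.859). DHRS9, LUM, CRYAB and DEPTOR followed the same order, with WT8 changes of 2.76, 1.82, 2.38 and 1.78 and PRC3 changes of 0.012, 0.28, 0.49 and 0. DENND2A and PNMA2, counted above as falls, measured 38.8 ± 32.5 and 46.4 ± 11.7 in Blk and were called higher in PRC3 (2.75 and 2.10, adjusted p = 0.00447 and 0.00138) and not called in WT8 (-0.64 and -0.64). EPCAM, an epithelial adhesion molecule, separated both sublines from Blk: it was at the floor on all 6 subline arrays and measured 107 ± 31.0 in Blk (log2 changes -2.38 and -2.38, adjusted p = 1.79e-05 and 2.72e-05). KRT19 was called lower in PRC3 against Blk (-1.53, adjusted p = 0.00211), with -0.74 in WT8 (adjusted p = 0.114).

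Genes called lower made up a larger share on chromosome 14 than elsewhere, a pattern found after the values were seen and given here as a description. Of 471 measured genes placed there by the RefSeq table of GRCh38.p14, 68 were called lower (14.4%) and 4 higher, against 342 of the other 14653 genes lower (2.33%). The median change was -0.276 for chromosome 14 and 0.0166 for the rest, and the medians of the other chromosomes ran from -0.0564 to 0.114. The shift ran along the whole chromosome. In 4 consecutive groups of its genes, of near-equal size and in order along the chromosome, the medians were -0.237, -0.279, -0.313 and -0.312. Under the other settings tried the median of chromosome 14 ran from -0.502 to -0.153, below that of the rest each time.

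**Figure D5:**
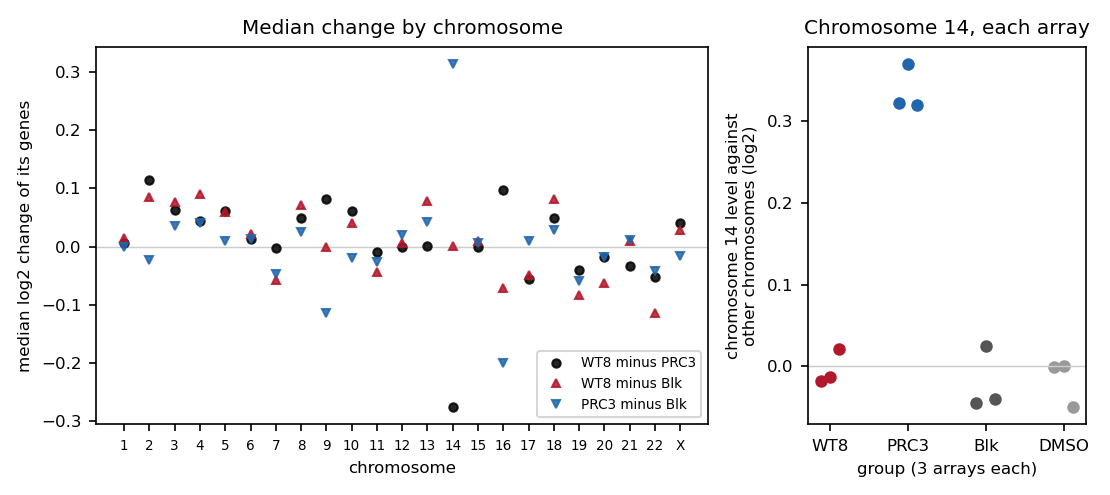
Left, the median log2 change of the genes of each chromosome for WT8 minus PRC3 (black circles), WT8 minus Blk (red triangles) and PRC3 minus Blk (blue triangles). Right, the level of chromosome 14 genes on each array against the other chromosomes on the log2 scale, for WT8, PRC3, Blk and the DMSO vehicle arrays, 3 a group; the PRC3 arrays sit at 0.32 to 0.37 and the WT8 arrays between -0.0177 and 0.0211.

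By array, the level of chromosome 14 is the median deviation of its genes from their mean over the 24 arrays, less that of the genes elsewhere. It was -0.0177, -0.0133 and 0.0211 on the WT8 arrays, against 0.322, 0.37 and 0.32 on the PRC3 arrays. On the other 18 arrays of groups of 3, those of Blk, DMSO and the compounds, it ran from -0.0699 to 0.0247. The PRC3 arrays were the ones that stood apart. Against Blk the median change of chromosome 14 genes was 0.00162 in WT8 and 0.314 in PRC3. Genes there that were called lower include AKT1, the protein kinase downstream of insulin and growth factor receptors, with 138, 107 and 69.1 in WT8, against 261, 296 and 301 in PRC3 (2.83-fold lower, adjusted p = 3.29e-05), and UBR7, an ubiquitin ligase of histone H2B, with 200.4, 205 and 212 in WT8, against 557, 537 and 451 in PRC3 (2.49-fold lower, adjusted p = 7.92e-07). Of the called members of the 41 lists, EGLN3 was the only one on chromosome 14, with a change of -4.16, and its Blk level of 539 ± 128 was close to that of PRC3 (log2 change -0.025).

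Smaller shifts were seen on other chromosomes. On chromosome 2 the median was 0.114, with 64 of 1006 genes called higher (6.36%), and in its 4 consecutive groups of genes the medians were 0.239, 0.146, 0.0767 and -0.0085. By array the level of chromosome 2 ran from 0.0331 to 0.0992 in WT8, against -0.0578 to -0.0404 in PRC3. Chromosome 16 had a median of 0.097 in WT8 against PRC3, with 32 genes called higher and 4 lower among 649, and of -0.071 in WT8 against Blk and -0.201 in PRC3 against Blk. RSAD2 and CMPK2 lie on chromosome 2, and the part of the chromosome-wide shift in their change was not tested.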

How the data were processed

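RNA of 26 samples was hybridised to Affymetrix U133 Plus 2.0 arrays, 1 colour, as the labels' protocols state. What was deposited are linear signal intensities per probe set, made with MAS5 per the submitters' processing notes; no version, scaling target or build was named. The labels describe limits of 20 and 16000 and a filter on variation, but 45.5% of the deposited values lie under 20, so the limits were applied here. All 26 arrays were quantile normalized with 62 control probe sets left out, signals were limited to 20 at the low end and 16000 at the high end, and log2 was taken. A probe set was kept where 3 or more of the 24 arrays in groups of 3 reached their own array's median, which left 35013 of 54613. At most 18.5% of the kept values of a WT8 or PRC3 array were at the floor, and against a group wholly at the floor a fold is a lower bound. Where part of the dimmer group is at the floor, 20 was used and the fold is a lower estimate.

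Names of genes were taken from the array's GEO annotation, checked against RefSeq symbols (41037 of 41091 probe sets with 1 gene were found). The kept probe sets comprise 28327 with 1 gene, 1297 with several, which name nothing here, and 5389 unnamed here. R 4.3.3 and limma 3.58.1 were used, with lmFit and trended eBayes, on 24 arrays in 8 groups, with 16 residual degrees of freedom, and p-values were adjusted by Benjamini-Hochberg over all 35013 probe sets; SE is that of the log2 change. The script was tested on simulated data.

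WT8 and PRC3 arrays of the same number deviated together from their group means (correlations over probe sets 0.457, 0.107 and 0.346). For unlike numbers the correlations ran from -0.373 to 0.0401, so the pairing was weak for replicate 2. The numbers come from the titles and were used as a block in alternative fits only. Changes, SE, adjusted p and calls given without mention of the block come from the fit without it. Blocked counts stand beside list counts where they differ for the lists described. With the block 4.67% of all genes were called higher and 4.04% lower. The text names members of the HIF and VHL core and HIF-2a target lists, the 15 top genes in each direction among calls without overlap whose brighter subline reaches the 70th percentile of signal, up to 4 called members of each other list by size of change, and cell type markers. Of 897 entries in 41 lists, 831 had a probe set with 1 gene. Members, lists and rules were chosen with earlier results of these data known. Names outside that rule, such as AKT1, UBR7 and uncalled list members, were chosen after their values were seen. Alternatives were other normalizations, floors, filters, variance priors, replicate blocks and arrays left out.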

Additional observations from a re-analysis of the deposited data

How the results depend on the processing

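The 1597 probe sets called (822 higher, 775 lower) became 3151 (1617 higher, 1534 lower) with a replicate block in which the WT8 and PRC3 numbers stand apart from those of the other groups, a setting added after seeing the data, and 2313 with 1 replicate block over all 24 arrays. With the 6 arrays alone limma called 19 (12 higher, 7 lower), and with the 6 arrays alone and the replicate block it called 0 probe sets, though 5453 had an unadjusted p under 0.05. The HIF-2a targets called lower numbered 2 with the 6 arrays alone and 0 with the block added; in both fits fewer arrays set the spread. Median scaling gave 442 higher, 37.3% of its 1184 calls in place of 51.5%, and moved the median of all probe sets to -0.0427. The filter stated in the labels kept 4881 probe sets and called 858 (447 higher, 411 lower). Leaving out each array in turn gave 1006 to 1869 calls, 522 to 937 higher and 484 to 932 lower, with the lowest counts without WT8 replicate 2 (1006, with 522 higher and 484 lower). HIF-2a targets called lower ran from 12 to 15 in those fits and the targets called higher numbered 0 throughout. For the named genes, called or not, 2474 of 2962 values under alternative settings kept the same call or lack of one. Of the rest 478 lost the call, 10 gained it and 0 were called in the opposite direction. The sign of uncalled genes near 0 was not counted. The replicate block over 24 arrays added the calls of CXCR4 and MXI1 among named genes and ended 0. Signals near the floor limit what can be seen of dim genes.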
